A study of Mus musculus with 6 samples.

Results

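Histones are the proteins that DNA is wrapped around. The 29 genes described here encode the core histones H2A, H2B and H4 and the linker histone H1 of the mouse, and each had a probe row of its own on the array. They were chosen by symbol alone, from rows that the platform annotation assigns to exactly 1 gene, and where a gene had several rows the row with the highest mean over the 6 arrays was kept. They make up 29 of the 22180 genes with such a row, among 41345 probe rows in all. Of these, 8 encode H1, 6 encode H2A, 8 encode H2B and 7 encode H4.

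Total RNA was measured on 6 Affymetrix whole-transcript arrays, 3 in each of 2 groups. In the ethanol group, C57BL/6J pups, an inbred laboratory strain, received ethanol under the skin at 2.5 g/kg in 0.15 M NaCl. In the saline group, pups of the same strain received saline on the same schedule, given on postnatal day 4 and again on day 7, with 2 injections per day at an interval of 2 hours. RNA of 3 males was pooled for every array, 18 mice in all, so the arrays measure the spread between pools and not between animals. The labels name the whole hippocampus as the tissue; they give the age at collection as 21 days in one place and day 70 in another.

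Most histone messages are made in S phase, when newly copied DNA needs packing, and they end in a stem-loop instead of a poly(A) tail. The stem-loop is bound by the protein SLBP, and the messages are destroyed when DNA synthesis stops. Some linker and core histone genes are also read in cells that no longer divide, in part as polyadenylated messages, and others are restricted to germ cells. Mature neurons do not divide, so signal from a brain sample can come from the few cells that still cycle as well as from messages made outside S phase. In bulk tissue, fewer cells with a message and less message per cell cannot be told apart.

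The genes lie in clusters whose members are nearly identical, and this decides what the array can resolve. Of 67 protein-coding genes that the RefSeq table of the GRCm38.p6 build lists under these symbols, 29 had a row of their own. A further 37 were named only in rows shared by several genes, among them all 12 H3 genes, H1f4 and H2bc4. H1f0, a linker histone of non-dividing cells, was not analysed here. Of the 29 genes, 21 lie on chromosome 13, 5 on chromosome 3, 2 on chromosome 6 and 1 on chromosome 15. The shared rows number 38, of which 35 have distinct values, and 15 of the 29 genes are named in them too. A row assigned to 1 gene can still bind transcripts of near-identical copies, so values of single core histone genes are uncertain.

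The stretches just before these genes carry the short motifs known from histone promoters, and 5 are printed because they belong to genes described below. They run 5′ to 3′ on the gene's own strand and end at the base before its annotated start, from RefSeq on GRCm38.p6. Capitals mark any of 4 motifs on either strand, which are the octamer ATTTGCAT, bound by OCT1; TATAAA, the core promoter box; CCAAT, bound by NF-Y; and AAACACA, the H1 box. The first, before H2ac20, spans the gap to its divergent neighbour H2bc21 and runs a few bases into that gene, at chr3:96220881-96221085 on the minus strand. The others are H2bc3 at chr13:23746584-23746733 on the plus strand, H4c12 at chr13:21750554-21750703 on the minus strand, H4c1 at chr13:23761250-23761399 on the minus strand and H1f2 at chr13:23738657-23738806 on the plus strand.
H2ac20: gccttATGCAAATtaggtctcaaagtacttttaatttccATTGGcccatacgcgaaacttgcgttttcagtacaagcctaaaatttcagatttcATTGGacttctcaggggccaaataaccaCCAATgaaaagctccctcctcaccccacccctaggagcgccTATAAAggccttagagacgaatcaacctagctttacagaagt
H2bc3: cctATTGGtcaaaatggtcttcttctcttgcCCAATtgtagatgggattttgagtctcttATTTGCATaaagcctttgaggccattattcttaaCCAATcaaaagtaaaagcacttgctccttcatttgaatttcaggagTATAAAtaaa
H4c12: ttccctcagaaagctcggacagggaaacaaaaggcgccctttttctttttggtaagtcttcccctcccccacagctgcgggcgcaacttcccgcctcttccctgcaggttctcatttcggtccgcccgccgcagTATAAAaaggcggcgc
H4c1: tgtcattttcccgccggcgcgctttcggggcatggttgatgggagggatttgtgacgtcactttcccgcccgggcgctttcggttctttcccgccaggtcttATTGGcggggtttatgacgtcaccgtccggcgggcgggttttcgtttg
H1f2: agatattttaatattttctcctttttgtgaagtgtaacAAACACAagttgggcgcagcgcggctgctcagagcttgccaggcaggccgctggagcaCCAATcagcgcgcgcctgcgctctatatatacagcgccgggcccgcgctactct

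Over the 250 bases before the start, RefSeq windows were matched for 27 of the 29 genes. The octamer occurred in 8 of the 27, namely 3 of 6 H2A windows, 5 of 7 H2B windows, 0 of 8 H1 windows and 0 of 6 H4 windows. It occurred in 1.6% of 32851 windows of all genes. The 3 H2A windows with it were those of H2ac1, H2ac12 and H2ac20, which each face an H2B gene. The windows of H2ac1 and H2bc1 overlap, as do those of H2ac12 and H2bc12. A motif there counts for both genes, as 1 octamer does in each pair. The octamer before H2ac20 lies within the annotated H2bc21. CCAAT was found in 20 of the 27, including all 6 H2A and all 7 H2B windows but 1 of 6 H4 windows, against 33.8% of all windows. TATAAA was found in 13 of the 27 and in 12.4% of all windows. The H1 box was found in 7 of the 27, 4 of them H1 genes, and in 6.25% of all windows. No motif overlapped another in the windows of the 27 genes. A match describes the letters only, since binding was not measured.

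Against saline, no histone gene passed the test after ethanol. With limma over all 41345 rows and Benjamini-Hochberg adjustment, 0 of the 29 genes had an adjusted p under 0.05, and the smallest was 0.857. The background was the same, with 0.0% of all rows called. The differences, ethanol minus saline on the log2 scale, ran between -0.58 for H2bc14 and 0.35 for H2bc21. They had standard errors of 0.07 to 0.24. The H4 genes lay mostly on the ethanol side, the germ cell genes mostly on the saline side, and H2B was divided.

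At an unadjusted p under 0.05, 3 histone genes were higher in ethanol (10.3% of 29), namely H2bc21, H4c12 and H4c1, where 1.2% of all 22180 genes were. On the lower side were 2 genes (6.9%), H1f7 and H2bc14, where 1.98% of all genes were. These are counts of few genes, and none passed after adjustment. By another description, all 3 ethanol arrays lay above all 3 saline arrays for 3 genes, against 5.74% of all genes. All 3 ethanol arrays lay below for 2 genes, H1f7 and H1f8, against 4.72% of all genes.

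**Figure D1:**
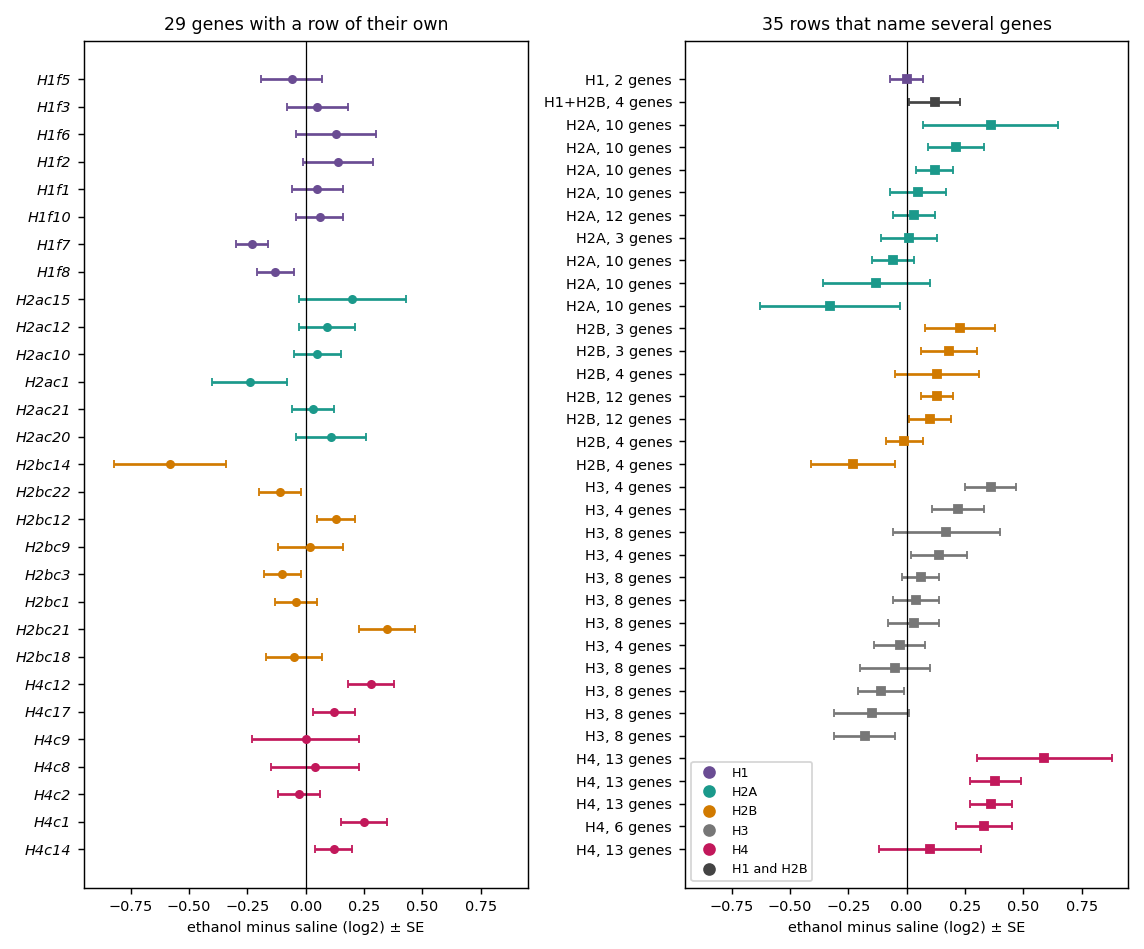
Difference in log2 level, ethanol minus saline, with its limma standard error, for the 29 histone genes with a row of their own (left, circles) and the 35 distinct rows that name several genes (right, squares), coloured by histone class. Of the left-hand points 19 lie above 0, and all 5 shared H4 rows on the right do.

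In all, 19 of the 29 differences were above 0 (65.5%) and their median was 0.05. Over all genes 12690 of 22180 were above 0 (57.2%) and the median was 0.02. On this array the difference varied with brightness for genes in general. Of genes above the median level of 7.10, 73.7% were higher in ethanol, while of those below it 40.7% were. Among the histone genes, 5 of the 7 above that level were higher in ethanol, and 14 of the 22 below it. With quantile or cyclic loess scaling, 3 of the 7 brighter genes were higher, as without ethanol array 1, and without saline array 2 it was 2 of the 7, with a median of -0.01. Brightness depends on the probes as well as on the message, so levels are not compared between genes.

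**Figure D2:**
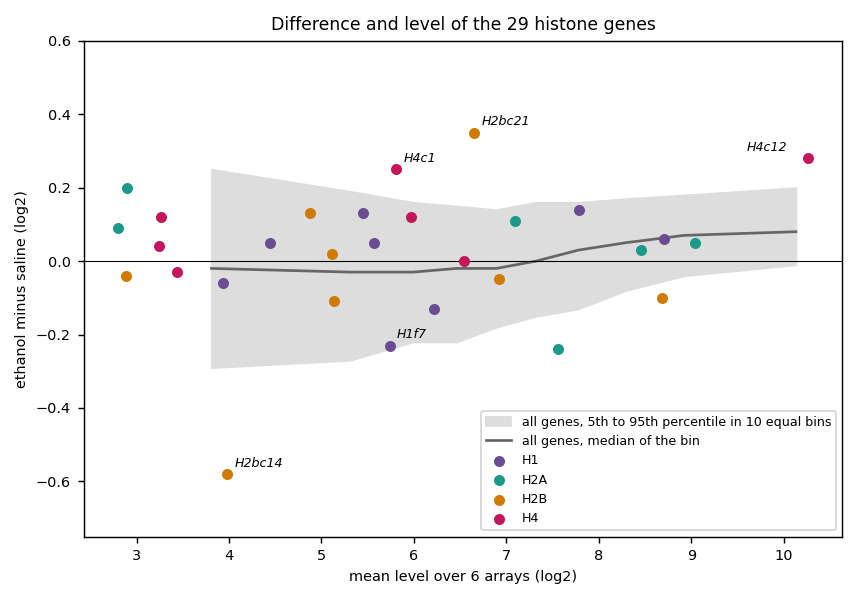
Difference in log2 level, ethanol minus saline, against the mean log2 level over 6 arrays for the 29 histone genes, with the median and the 5th to 95th percentile of all genes in 10 bins of equal size. The bin medians run between -0.03 and 0.08, and H2bc21, H4c1 and H2bc14, labelled in the plot, lie outside the shaded band, as do H2ac1 and H2bc3; H4c12 lies beyond its bright end.

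The core histone H4, which forms a tetramer with H3 at the centre of the nucleosome, was higher in ethanol at 6 of 7 genes, among them H4c9 with 0.00, and the median difference was 0.12. Without ethanol array 2 or without saline array 1, 4 of the 7 were higher, with medians of 0.10 and 0.11. Of the 2 H4 genes at an unadjusted p under 0.05, none was left without ethanol array 1, ethanol array 2 or saline array 2, and 1 was left without ethanol array 3 or saline array 3. H4c12 (chromosome 13, 21750145 to 21750553) had log2 levels of 10.56, 10.39 and 10.27 in ethanol, against 10.21, 10.04 and 10.11 in saline. Its groups did not overlap. The difference was 0.28 ± 0.10 (SE, n = 3 each; limma adjusted p = 0.857).

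H4c1 (chromosome 13, 23760795 to 23761249) read 5.96, 5.89 and 5.94 in ethanol, against 5.76, 5.49 and 5.79 in saline. The ethanol arrays were close together and all above the saline ones, of which saline array 2 was lowest. The difference was 0.25 ± 0.10 (limma adjusted p = 0.857). The printed promoters of these genes, which encode the same protein, differ in motifs, with TATAAA in that of H4c12 and CCAAT in that of H4c1.

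H4c14, in the chromosome 3 cluster, had 5.94, 6.05 and 6.08 in ethanol, against 5.89, 6.00 and 5.83 in saline, and the groups overlapped. Its difference was 0.12 ± 0.08 (SE, limma). H4c9 read 6.03, 6.73 and 6.86 in ethanol, against 6.34, 6.47 and 6.81 in saline. Ethanol array 1 was the lowest of the 6, and the difference was 0.00 ± 0.23. The remaining H4 genes, H4c2, H4c8 and H4c17, were dim, with mean levels of 3.24 to 3.44 and differences of -0.03 to 0.12.

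The rows shared by several H4 genes lay on the same side. There were 5 with distinct values, all higher in ethanol, with differences of 0.10 to 0.59 and a median of 0.36. One row naming 13 H4 genes read 4.26, 4.28 and 4.12 in ethanol, against 3.73, 3.92 and 3.94 in saline, with no overlap. Its difference was 0.36 ± 0.09 (limma adjusted p = 0.857). A second row of the same 13 genes read 3.67, 3.76 and 3.71 in ethanol, against 3.56, 3.16 and 3.28 in saline, with a difference of 0.38 ± 0.11 (limma adjusted p = 0.857). The other rows of these 13 genes overlapped between the groups, with differences of 0.10 ± 0.22 and 0.59 ± 0.29. A row of 6 H4 genes had 5.69, 5.67 and 5.40 in ethanol, against 5.44, 5.13 and 5.20 in saline, and ethanol array 3 lay below saline array 1. The rows of 13 genes all name H4c12, H4c1 and H4c14 among others, so they are not independent of the single-gene rows.

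Together 11 of 12 H4 rows, single and shared, were higher in ethanol, with a median difference of 0.19. The count was 11 or 12 under 3 other scalings and 9 to 11 when 1 array was left out. This grouping of rows was made after their values were seen. The shared H4 rows were dim, with mean levels of 3.52 to 5.46. H4f16, an H4 gene whose symbol lies outside the selection, read 8.69, 8.53 and 8.15 in ethanol, against 8.49, 7.96 and 7.98 in saline. The groups overlapped and the difference was 0.31 ± 0.19.

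H2B, which pairs with H2A, was higher in ethanol at 3 of 8 genes, with a median difference of -0.05, and held both ends of the range. Without saline array 1, 5 of the 8 were higher and the median was 0.05, and without ethanol array 1 or saline array 3, 2 of the 8 were higher. The shared H2B rows leaned the other way. Of 7 with distinct values, 5 were higher in ethanol, 1 of them without overlap, and the median difference was 0.13. H2bc21 (Hist2h2be; chromosome 3, 96221072 to 96223738) encodes a variant described in the mouse in olfactory neurons and read outside S phase. Its levels were 6.80, 6.76 and 6.91 in ethanol, against 6.45, 6.26 and 6.69 in saline. All ethanol arrays were above all saline arrays, and saline array 2 was lowest. The difference was 0.35 ± 0.12 (limma adjusted p = 0.857).

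H2bc14, a core H2B gene of chromosome 13 (21722044 to 21722526), read 3.27, 3.83 and 3.98 in ethanol, against 3.85, 4.39 and 4.58 in saline. The saline array with the lowest value lay between the upper ethanol arrays, so the groups overlapped. The difference was -0.58 ± 0.24 (limma adjusted p = 0.857), in a row brighter than only 11.5% of rows. Brighter rows that name H2bc14 among 12 H2B genes lay on the other side. Their differences were 0.13 ± 0.07 and 0.10 ± 0.09, at mean levels of 9.69 and 6.99. H2bc12 read 4.99, 5.0 and 4.85 in ethanol, against 4.86, 4.81 and 4.76 in saline, a difference of 0.13 ± 0.08.

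The other H2B genes overlapped between the groups. H2bc3 had 8.59, 8.64 and 8.66 in ethanol, against 8.65, 8.77 and 8.78 in saline, a difference of -0.10 ± 0.08. H2bc18 had 6.96, 6.86 and 6.85 in ethanol, against 7.20, 6.80 and 6.84 in saline, where saline array 1 alone was high; its difference was -0.05 ± 0.12. H2bc1, H2bc9 and H2bc22 differed by -0.11 to 0.02.

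H2A was higher in ethanol at 5 of 6 genes with a median difference of 0.07, but at 3 of 6 with quantile or cyclic loess scaling. The count was 3 of 6 without ethanol array 1, and 2 of 6 with a median of -0.02 without saline array 2. H2ac10 had 9.16, 8.97 and 9.04 in ethanol, against 9.08, 9.12 and 8.84 in saline. H2ac21 had 8.54, 8.45 and 8.43 in ethanol, against 8.54, 8.31 and 8.48 in saline. Both overlapped, with differences of 0.05 ± 0.10 for H2ac10 and 0.03 ± 0.09 for H2ac21 (SE, limma). H2ac12, H2ac15 and H2ac20 differed by 0.09 to 0.20 and overlapped too.

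Some H2A and H2B genes stand head to head and share the stretch between them. H2ac20 and H2bc21 lie 191 bases apart, a gap contained in the first sequence printed above, and differed by 0.11 and 0.35. H2ac12 and H2bc12, 177 bases apart, differed by 0.09 and 0.13. H2ac1 and H2bc1, 280 bases apart, differed by -0.24 and -0.04. The members of each pair lay on the same side of 0, but of these 6 genes H2bc21 alone had non-overlapping groups. The standard errors of the 6 ran between 0.08 and 0.16. H2ac12 and H2bc1 were brighter than only 2.9% and 3.6% of rows, so their signs are uncertain.

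Linker histone H1 binds where DNA enters and leaves the nucleosome. Of its 8 genes 5 were higher in ethanol, with a median difference of 0.05. Without saline array 2, and likewise without saline array 3, 3 of the 8 were higher and the median was -0.01; it was also -0.01 without ethanol array 2, with 4 of 8 higher. H1f2, read in dividing and non-dividing cells, had 7.94, 7.67 and 7.96 in ethanol, against 7.95, 7.43 and 7.78 in saline, a difference of 0.14 ± 0.15. H1f10 (H1fx), a gene apart from the main cluster on chromosome 6, had 8.65, 8.83 and 8.71 in ethanol, against 8.71, 8.52 and 8.76 in saline, a difference of 0.06 ± 0.10. For both, saline array 2 was the lowest, and without it both differences were -0.01. H1f1, H1f3 and H1f5 differed by -0.06 to 0.05.

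The lowest differences among H1 genes were those of H1f7 and H1f8, both known from germ cells. H1f7 (chromosome 15, 98255982 to 98257307), the linker histone of elongating spermatids, read 5.68, 5.56 and 5.65 in ethanol, against 5.86, 5.85 and 5.85 in saline. The groups did not overlap, and the saline arrays agreed within 0.01 (SD). The difference was -0.23 ± 0.07 (limma adjusted p = 0.857).

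H1f8 (H1foo), the oocyte linker histone, read 6.17, 6.12 and 6.19 in ethanol, against 6.23, 6.37 and 6.26 in saline. The groups did not overlap, and the difference was -0.13 ± 0.08. H2ac1, an H2A gene known from testis, read 7.66, 7.21 and 7.47 in ethanol, against 7.65, 7.95 and 7.45 in saline, with overlap and a difference of -0.24 ± 0.16. Of the 5 germ cell genes, H1f6, H1f7, H1f8, H2ac1 and H2bc1, 4 were lower in ethanol and the median was -0.13. They were grouped after their values were seen, and all but H2ac1 lay below the median level of genes, where 40.7% of genes were higher in ethanol.

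**Figure D3:**
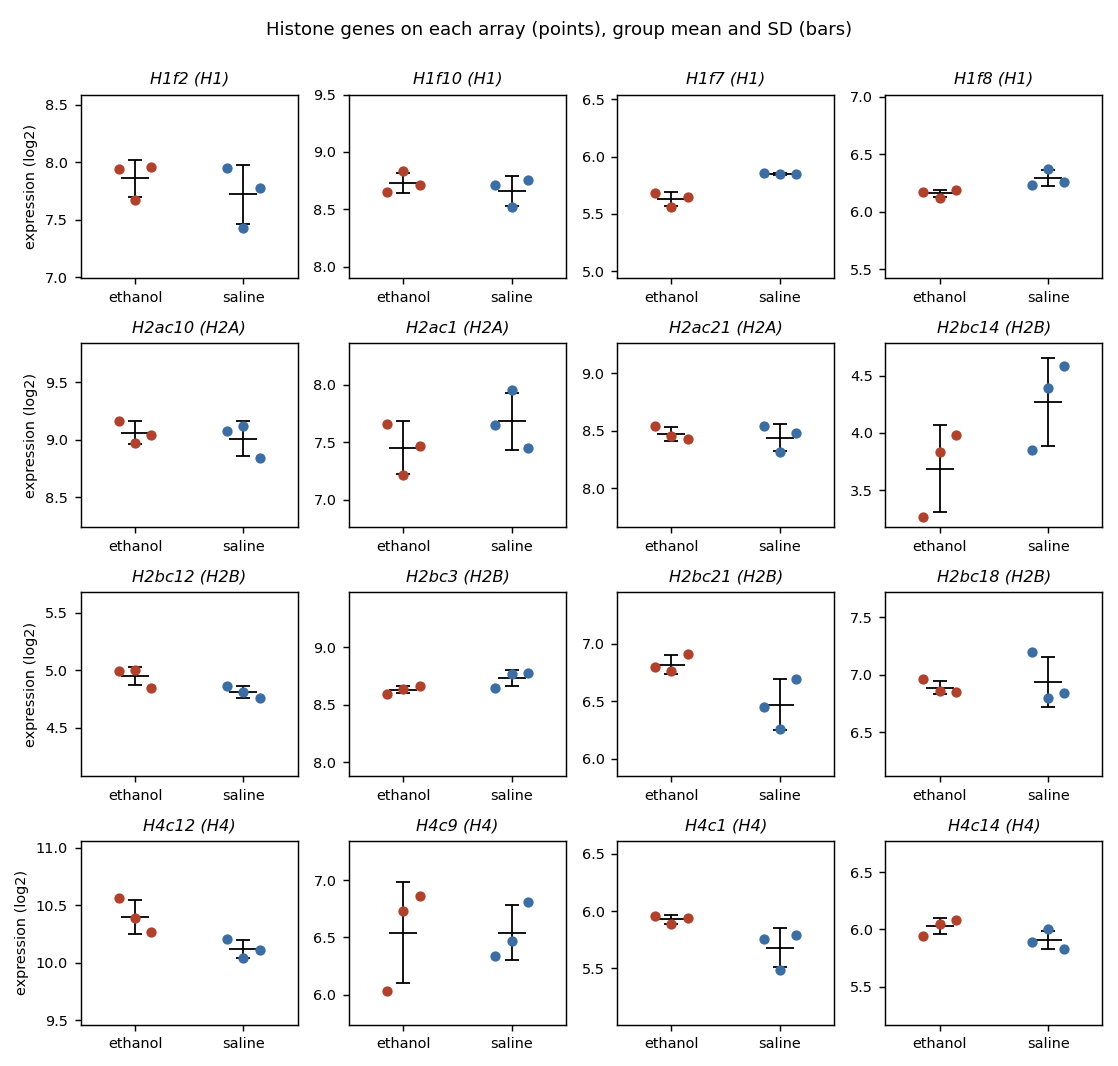
Log2 expression of 16 histone genes on each array, ethanol left (red) and saline right (blue), with bars for the group mean and SD (n = 3 arrays each); each panel has its own range of levels with the same height in log2 units. The groups are apart for H4c12, H4c1, H2bc21, H1f7 and H1f8 and overlap for the other genes.

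No H3 gene had a row of its own. In 12 shared H3 rows with distinct values, 7 were higher in ethanol and the median difference was 0.03. The row of 4 H3 genes with the smallest p read 2.66, 2.68 and 2.93 in ethanol, against 2.36, 2.52 and 2.31 in saline. It did not overlap, and its difference was 0.36 ± 0.11 (limma adjusted p = 0.857), but it was brighter than only 1.4% of rows. The other rows of the same 4 genes overlapped, with differences of 0.14, -0.03 and 0.22. Over the 35 distinct shared rows of all classes, 24 were higher in ethanol with a median of 0.10. Of these 4 had an unadjusted p under 0.05, all higher, against 1.97% of all rows on that side, and 4 had non-overlapping groups on that side, against 5.06% of all rows. By p they were 3 H4 rows described above and the dim H3 row. Rows of a class name many of the same genes, so they are not separate counts.

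The histone genes did not share 1 pattern across the arrays. Between pairs of the 29 genes the median Pearson correlation over 6 arrays was -0.03, as a description, since the arrays share 1 normalization. The median deviation of the 29 genes from their own means was 0.04, 0.00 and 0.00 in ethanol, against 0.02, 0.03 and -0.05 in saline. Within ethanol the median SD was 0.10 for histone genes and 0.09 for all genes, and within saline it was 0.17 and 0.11. Saline array 2 gave the lowest value for 10 of the 29 genes, and leaving it out left 14 of 29 higher in ethanol with a median of -0.01.

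**Figure D4:**
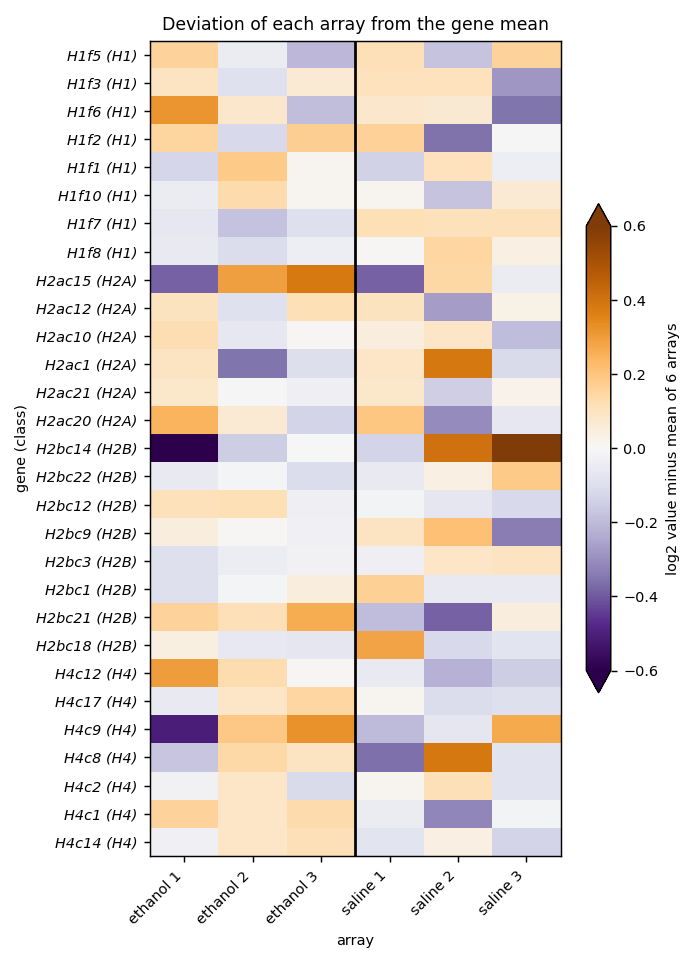
Deviation of each array from the gene's mean over 6 arrays, in log2 units, for the 29 histone genes by class, with the ethanol arrays left of the black line and the saline arrays right of it. Rows differ in pattern, and H2bc14, H4c9 and H2ac15 vary most from array to array.

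Genes that handle histone messages and proteins showed no call either. Of 25 measured genes for histone message processing and transcription, 0 passed the adjusted test with limma and 0 had an unadjusted p under 0.05. Their median difference was 0.05, with 21 of 25 higher in ethanol, and among all genes above the median level 73.7% were. Slbp, the stem-loop binding protein, differed by 0.13 ± 0.10, and Npat, the coactivator of histone genes at S phase entry, by 0.16 ± 0.09. Of 21 histone chaperones 16 were higher in ethanol, with a median of 0.06 and none at an unadjusted p under 0.05.

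Genes of dividing cells had a median difference near that of all genes. The few with an unadjusted p under 0.05 or without overlap were higher in ethanol. Of 46 S phase and proliferation genes 25 were higher in ethanol, the median was 0.01 (0.02 over all genes), and 0 were called with limma. At an unadjusted p under 0.05 were 2 genes (4.35%, all higher, against 1.2% of all genes), Prim1, a primase subunit, with 0.26 ± 0.09 and Aurkb, a mitotic kinase, with 0.23 ± 0.08, both at a limma adjusted p of 0.857. The groups did not overlap for 5 of the 46, all higher in ethanol (10.9%, against 5.74% of all genes), among them the replication clamp Pcna at 0.21 and the helicase subunit Mcm2 at 0.15. None of the 46 lay lower without overlap, against 4.72% of all genes, but 21 of the 46 were lower. The differences ran between -0.26 ± 0.13 for Birc5, with overlap, and 0.26 for Prim1. The mean log2 level of the measured proliferation markers Mki67, Top2a and Cdk1 was 6.27 to 6.45 on ethanol arrays, against 6.31 to 6.42 on saline arrays. Among 12 histone genes outside the symbols chosen here, 8 were higher in ethanol with a median of 0.08. H2az2, a replication-independent H2A variant, read 9.08, 9.03 and 8.89 in ethanol, against 8.89, 8.66 and 8.86 in saline, and differed by 0.20 ± 0.10.

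Markers of the labelled tissue and of other cells were read on the same arrays, as levels of each list and not as amounts to be set against each other. Dentate gyrus granule cell markers averaged 6.87 to 7.02 on ethanol arrays, against 6.87 to 7.08 on saline arrays. CA1 markers averaged 7.51 to 7.59 on ethanol arrays, against 7.56 to 7.71 on saline arrays, and CA3 and CA2 markers averaged 6.96 to 7.02 on ethanol arrays, against 7.05 to 7.12 on saline arrays. The 3 measured markers of telencephalic pyramidal neurons averaged 6.17 to 6.37 on ethanol arrays, against 6.27 to 6.34 on saline arrays. These markers, Neurod6, Emx1 and Tbr1, were brighter than 53.5%, 45.2% and 31.8% of rows.

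Cerebellar granule cell markers, which hippocampus should largely lack, were bright. All 6 were measured and averaged 10.90 to 10.93 on ethanol arrays, against 10.79 to 10.88 on saline arrays. Of the 6, Cbln3 alone was higher without overlap, by 0.14 ± 0.07. Of 4 markers listed for Purkinje cells, also of the cerebellum, 2 were measured, Car8 and Calb1. Calb1 is not restricted to these cells. Both genes were bright and averaged 12.36 to 12.41 on ethanol arrays, against 12.33 to 12.35 on saline arrays. Whether the RNA came from hippocampus, in whole or in part, was not tested. The astrocyte markers, all 3 measured, averaged 10.99 to 11.19 on ethanol arrays, against 10.90 to 11.01 on saline arrays. Within that list the water channel Aqp4 read 11.33, 11.37 and 11.26 in ethanol, against 11.04, 11.09 and 11.04 in saline, without overlap, a difference of 0.26 ± 0.07. Lower without overlap were the leukocyte marker Ptprc with -0.31 ± 0.10, the CA1 marker Fibcd1 with -0.22 ± 0.08 and the CA3 and CA2 marker Iyd with -0.19 ± 0.08. All 4 had a limma adjusted p of 0.857. The other members of their lists overlapped between the groups. Gfap and Slc1a3 (astrocytes) differed by 0.12 and 0.07, and Wfs1 and Mpped1 (CA1) by -0.02 and 0.02. Bok and Rgs14 (CA3 and CA2) differed by 0.04 and -0.06, and the leukocyte markers S100a8, Cd3e and Cd79a by -0.08, -0.04 and 0.02. The cerebellar granule cell marker level and Aqp4 were higher on every ethanol array, as H4c12, H4c1 and H2bc21 were. Ptprc, Fibcd1 and Iyd were lower there, as H1f7 and H1f8 were. They are set side by side because their groups did not overlap, so the shared split of arrays follows from that choice and shows no link. The cerebellar granule cell markers had a median difference of 0.10, and the brightest of 10 bins of all genes had 0.08. The part of these cells in the histone differences was not tested.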

How the data were processed

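The authors deposited a table of log2 values for 41345 probe rows on 6 arrays; the scale was read from the values. Biotin-labelled complementary DNA was made from 200 ng of RNA, per the labels' protocols. The background correction, summarization and normalization are not given in the sources used here; normalization between arrays can shrink or shift small differences. The build is mm 10, per the submitters' processing notes. Rows were named through the platform annotation (23521 rows name 1 gene, 1814 several), and positions and promoters from RefSeq on GRCm38.p6.

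Each row was tested with limma 3.58.1 under R 4.3.3 (lmFit, eBayes, ethanol minus saline, two-sided, no covariate, no filter), with 4 residual and 2.94 prior degrees of freedom, and called at a Benjamini-Hochberg adjusted p under 0.05 over the 41345 rows. The test was checked on simulated data. That check required calls only at changes larger than any histone difference here, so it does not show that changes of their size would be called. The replicate is the array, and having few arrays limits precision. With 3 against 3 the smallest two-sided exact permutation p is 0.1. The table holds no detection calls, so dim rows were kept. Samples were grouped by their labels. Other scalings, priors, filters, row choices and arrays left out were tried.

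Genes named with every array's value, 16 in all, included the 3 brightest of each class and the 8 with the smallest unadjusted p. H1f2, H1f10, H2bc21 and H4c14 came from a fixed list of genes read outside S phase or lying outside the main cluster. That list does not hold every gene outside the cluster. Any gene without overlap at 1.2-fold or more was named too. Members and lists were chosen with earlier results of these data known.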

Additional observations from a re-analysis of the deposited data

How the results depend on the processing

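No histone gene was called under any of the alternatives run, nor at a threshold of 0.1. The number with an unadjusted p under 0.05 was 5 as reported, 3 with quantile normalization, 3 with cyclic loess, 2 among rows above the median level (10 genes were left) and 9 of 65 rows when shared rows were added, a choice made after seeing the data. Leaving out 1 array gave 1 to 4, the lowest when either ethanol array 2 or saline array 2 was dropped. The median difference then ranged between -0.01, without saline array 2, and 0.07, and the share higher between 48.3% and 69.0%. Same-numbered arrays did not pair (correlations of deviations 0.101, -0.0564 and 0.038), and with the replicate number as a block (replicate block) 0 genes were called, 5 had an unadjusted p under 0.05, the median was 0.05 and 65.5% were higher. With each array centred on its median, 15646 of 22180 genes were higher in ethanol.

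Of 16 named genes 10 kept their sign in every setting. Others crossed 0. Leaving out 1 array, H1f2 ranged between -0.01 (without saline array 2) and 0.25, and H1f10 between -0.01 (without saline array 2) and 0.11. H2ac10 was -0.02 with quantile and with cyclic loess scaling, -0.01 without ethanol array 1 and -0.04 without saline array 3. H2ac21 was -0.01 with quantile and -0.02 with cyclic loess scaling, -0.01 as the mean of its rows, -0.05 from its dimmer row and between -0.04 and 0.08 with 1 array left out. H2bc18 ranged between -0.12 and 0.07, above 0 without saline array 1, and H4c9 ranged between -0.16 and 0.26. H2bc21 ranged between 0.25 and 0.46 (unadjusted p under 0.05 in 14 of 17 settings), H4c12 between 0.20 and 0.35 (11 of 17), H4c1 between 0.15 and 0.30 (11 of 16), H1f7 between -0.25 and -0.18 (15 of 16) and H2bc14 between -0.79 and -0.37 (7 of 16). The cause was not tested. Dim rows limit what can be seen: 19 of the 29 genes lay below the median of all rows and 6 among the dimmest 10% of rows.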

Other observations

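By Pearson correlation over the 6 arrays, the genes whose profile was most like the median profile of the 29 histone genes, among 22151 other genes, were Bicdl2 (0.990), Catsperg2 (0.989), Unc45bos (0.987), Bpifb2 (0.980) and Tfap2e (0.977). The 6 arrays share 1 normalization, and these values are a description only.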
